A study of Mus musculus with 3 samples.

Results

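Integrins, laminins and hemidesmosome proteins hold an epithelial cell to the basement membrane under it. The set described here holds 35 genes, chosen by name: 13 integrin alpha chains, 8 integrin beta chains, 10 laminin chains and 4 other parts of the hemidesmosome or its partners. All 35 were found in the deposited table of 44625 genes, each by its own symbol. Polyadenylated RNA was sequenced from wild-type mouse back skin at 56 days of age, when hair follicles rest in the second telogen. Cells were freed with trypsin, and live cells labelled as having surface integrin alpha6 and lacking Sca1 were sorted, although the protocol names an antibody to alpha6 alone. They form a single group of 3 libraries, with no control group and no treatment. The labels speak of duplicates although there are 3 samples, so whether each came from its own mice is unclear, and the spread between them may be partly technical.

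An integrin is a pair of one alpha and one beta chain that spans the membrane, binds matrix outside and links to the cytoskeleton inside. Most beta chains lead to actin through talin and kindlin, whereas the beta4 chain carries a long cytoplasmic tail that binds plectin and so joins the keratin network. A laminin is a trimer of one alpha, one beta and one gamma chain, secreted into the basement membrane. In the hemidesmosome, the integrin of alpha6 and beta4, collagen XVII and the plakins plectin and dystonin tie keratin filaments to laminin that holds Lama3 and Lamb3.

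Total counts were between 29283936 and 39198620 per library. Levels are in TPM, a unit in which each count was divided by the length of its gene and libraries were brought to the same sum, and errors are SD over the 3 libraries. The markers of the sorted cells were present: the 6 hair follicle stem cell markers (Krt15, Cd34, Lgr5, Sox9, Lhx2 and Nfatc1) all lay above 1 TPM in every library, and Krt5, Krt14 and Trp63 did as well. Markers of the differentiated layers (Krt1, Krt10, Lor and Ivl) summed to 1647, 3142 and 5014 TPM in replicates 1, 2 and 3. Krt1, Krt10 and Lor were each lowest in replicate 1, whereas Ivl was highest there, with 28.4, 15.7 and 24.5 TPM. Ly6a, which encodes Sca1, had 3.16, 11.6 and 8.99 TPM. Of the other cell types, 3 of 4 endothelial markers, 2 of 5 smooth muscle and pericyte markers and 3 of 4 platelet markers had no counts in any library. Summed levels were 0.199 to 0.323 TPM for endothelium, 7.96 to 23.8 TPM for fibroblasts, 11.5 to 14.6 TPM for melanocytes, 3.73 to 6.15 TPM for Schwann cells, 0.838 to 2.02 TPM for platelets and 8.90 to 15.2 TPM for immune cells. The fibroblast sum was nearly all Col1a1, with 7.36, 21.6 and 23.3 TPM. Col3a1, Dcn and Pdgfra averaged 0.027, 0.27 and 0.24 TPM, and Lum had no counts. In such bulk samples, fewer cells of a type and less RNA per cell cannot be told apart.

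Of the 35 genes, 24 had at least 1 TPM in every library (68.6%), the level counted as detected below. The same held for 52.2% of protein-coding genes and 27% of all genes. One more, Itga10, averaged above 1 TPM but fell under it in replicate 2. Another 8 had counts but averaged under 1 TPM, and Itga9 and Lamc3 had no counts. Over the 25 genes with a mean of at least 1 TPM, the SD of log2(TPM + 1) was at or below the median of genes of like level in 15 and above it in 10.

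**Figure D1:**
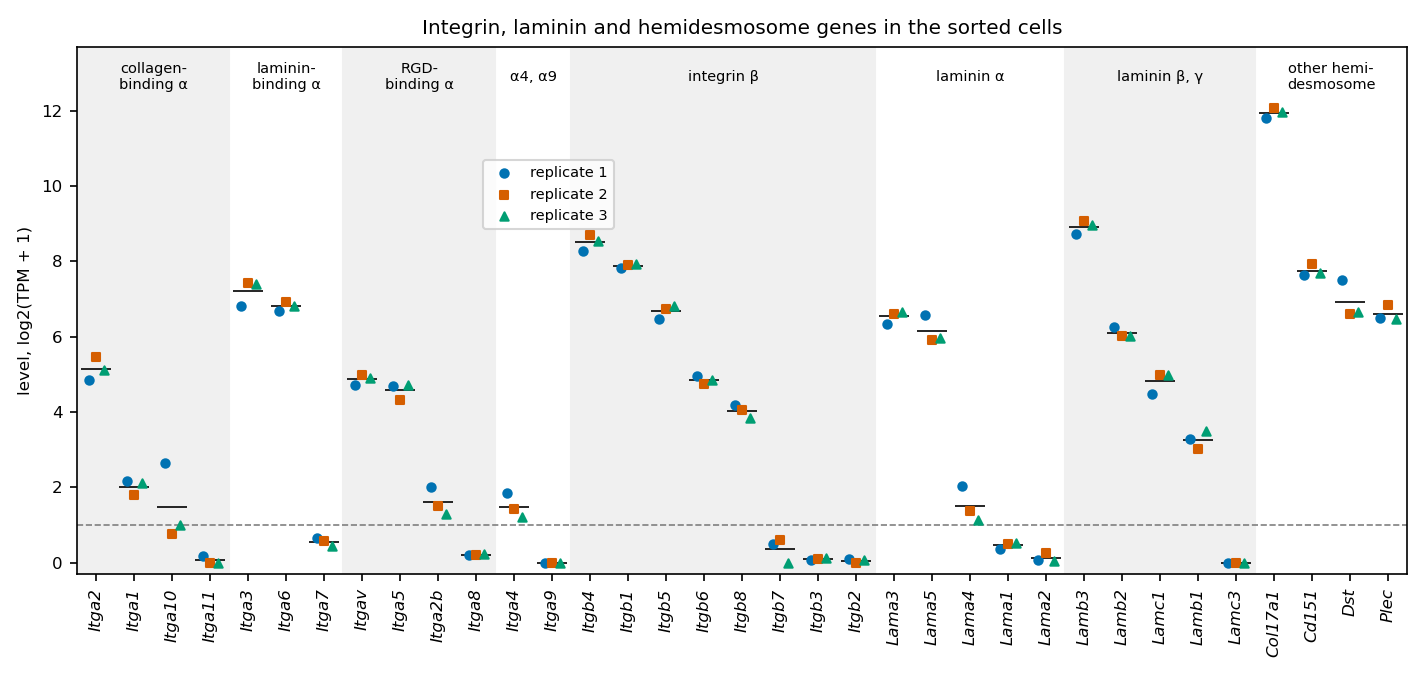
Each point is the level of a gene in 1 library as log2(TPM + 1), with genes grouped by role along the horizontal axis and bars at the mean of 3 libraries; the dashed line marks 1 TPM. Col17a1 stands above all others, and 2 of 13 integrin alpha chains and 3 of 8 integrin beta chains have means above 100 TPM.

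Col17a1, Lamb3 and Itgb4, all genes of the hemidesmosome or its laminin, had the highest means of the set. Col17a1, the membrane-spanning collagen XVII (GRCm38 chromosome 19, 47646344 to 47692094, minus strand), reached 3613 TPM in replicate 1, 4339 in replicate 2 and 3986 in replicate 3. Its mean of 3979 ± 363 TPM ranked 31 among all genes. Itgb4, the beta chain of the hemidesmosome integrin (chromosome 11, 115974709 to 116008412, plus strand), had 309, 412 and 375 TPM. The SD on the log2 scale was 0.13 for Col17a1, against a median of 0.16 for genes of like level. For Itgb4 it was 0.21, above the median of 0.17. Replicate 1 was lowest for both genes. Cd151, a tetraspanin that associates with laminin-binding integrins, had 197, 243 and 206 TPM, a mean of 216 ± 24.5 TPM. Plec, the plectin linker to keratins, had 90.1, 113 and 87.4 TPM. Dst, whose epithelial product is the plakin of the inner hemidesmosome plaque (chromosome 1, 33908225 to 34308661, plus strand), had 181, 96.0 and 99.1 TPM. Replicate 1 thus held nearly all of the spread of Dst, whose SD on the log2 scale was 0.51 against a median of 0.17 for genes of like level. An annotated transcript on the opposite strand, Gm26788, overlaps exons of Dst and had 3138, 1094 and 1651 counts, against 80088, 54091 and 62931 for Dst. Strand use in counting was not stated, so reads in the shared bases cannot be assigned. The same limit holds for Plec with Parp10, Itga1 with Gm49395 and Itga10 with Gm42957 on the same strand. On the opposite strand it holds for Itga4 with Cerkl, Itgav with Gm13684, Itgb4 with B230344G16Rik, Cd151 with Gm10575 and Lama3 with Gm29200. It also holds for Itga8 with E030013I19Rik, which had 1, 13 and 19 counts against 11, 14 and 19 for Itga8. Itga7, Lama2 and Lamc3 have such overlaps as well.

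Dst also has the longest gene model of the set. Its deposited length is 41155 bases, by a rule not given in the sources used here, while its longest annotated transcript has 23279 bases. With transcript length in place of the deposited length, its level was 186 ± 69.8 TPM instead of 125 ± 47.9 TPM. With the deposited lengths, the order of Dst and Plec was not the same in the 3 libraries, with Dst higher in replicates 1 and 3 and lower in replicate 2. Their mean difference in log2(TPM + 1) was 0.31 ± 0.63 (exact sign-flip p = 0.75), which is smaller than its spread, and it came to -0.029 without replicate 1. With transcript lengths it was 0.90 ± 0.63 with Dst higher in 3 of 3 libraries (exact sign-flip p = 0.25), so the order of Dst and Plec depends on the length used.

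Among the alpha chains, both laminin receptors of epithelia were highest. Itga3, whose pair with Itgb1 binds laminins outside the hemidesmosome (chromosome 11, 95044474 to 95076801, minus strand), had 112, 170 and 169 TPM. Itga6, the chain whose protein was used to sort the cells (chromosome 2, 71745616 to 71858416, plus strand), had 102, 120 and 112 TPM, so its presence is no finding. The third laminin-binding chain, Itga7, known from muscle, had 0.578, 0.473 and 0.355 TPM. Itga3 was low in replicate 1 and alike in the other two libraries, whereas Itga6 differed little between libraries.

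The collagen-binding chains were led by Itga2, the keratinocyte collagen receptor (chromosome 13, 114833081 to 114932100, minus strand), with 28.0, 43.0 and 33.5 TPM. Itga1, which lies 20995 bases from Itga2 on the same strand, had 3.46, 2.47 and 3.30 TPM. Every library of Itga2 thus lay above every library of its neighbour. Itga10, a chain known from cartilage, had 5.26, 0.676 and 1.01 TPM from 294, 48 and 81 counts, so that 1 library set its mean of 2.32 TPM. Itga11, known from fibroblasts, had 7, 0 and 0 counts.

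Chains of receptors that read the RGD peptide motif of matrix proteins were moderate. Itgav, the common partner of 5 beta chains, had 25.5, 30.5 and 28.8 TPM, and Itga5, the fibronectin receptor chain, had 24.7, 18.9 and 25.5 TPM. Itgav was the higher of the 2 in each library, although their ranges just overlap. Itga2b, the platelet chain, had 3.03, 1.82 and 1.45 TPM, while the platelet markers Pf4, Gp9 and Ppbp had no counts in any library and Gp1bb had 17, 52 and 42 counts, or 0.838, 2.02 and 1.45 TPM. The part of such cells in the Itga2b level was not tested. Itga8, a chain of smooth muscle, had 0.139, 0.139 and 0.167 TPM. Of the remaining alpha chains, Itga4, known from leukocytes and neural crest cells, had 2.57, 1.67 and 1.32 TPM. Itga9 had no counts, which allows up to 0.0362 TPM in the shallowest library.

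Itgb1, the beta chain with the most partners (chromosome 8, 128685654 to 128733200, plus strand), had 227, 238 and 244 TPM and was the steadiest of the detected genes, with an SD of 0.05 on the log2 scale. Itgb5, which pairs with Itgav and binds vitronectin, had 87.4, 105 and 113 TPM. Itgb6 and Itgb8, whose pairs with Itgav activate latent TGF-beta, had 30.2, 25.6 and 27.7 TPM and 17.1, 15.6 and 13.2 TPM. Itgb6 lay above Itgb8 in each library. The beta chains of blood cells were near the limit of counting. Itgb2 had 2, 0 and 2 counts, Itgb3 had 3, 6 and 7, and Itgb7 had 12, 19 and 0. The partners of Itgb2 and Itgb7 outside the set were as low: Itgad had no counts, Itgal 0, 5 and 0, Itgam 1, 2 and 14, Itgax 0, 2 and 0, and Itgae 3, 10 and 0. Of the 4 immune markers, Ptprc had 0, 0 and 5 counts, Cd3e 0, 20 and 0, Cd207 11, 10 and 9, and Cd74, of antigen-presenting cells, 125, 277 and 207.

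Which integrins can form was read from 24 textbook pairs, asking whether both chains were detected. This held for 11 pairs, and the lower chain of each gives the level up to which transcripts of both were present. It was highest for Itga3 with Itgb1, at 112, 170 and 169 TPM. Itga6 came next with either Itgb4 or Itgb1, at 102, 120 and 112 TPM for both, since Itga6 is the lower chain in each. Itga2, Itgav and Itga5 with Itgb1 had 34.8 ± 7.59, 28.3 ± 2.57 and 23.0 ± 3.62 TPM. Itgav with Itgb5, Itgb6 and Itgb8 had 28.3 ± 2.57, 26.3 ± 1.28 and 15.3 ± 1.97 TPM. Itga1 and Itga4 with Itgb1 completed the 11, at 3.08 ± 0.53 and 1.85 ± 0.65 TPM. The 13 pairs not counted were those with Itga7, Itga8, Itga9, Itga10, Itga11, Itgb2, Itgb3 or Itgb7. Transcripts in pooled cells do not show that both chains were made in the same cell or reached the surface as protein.

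**Figure D2:**
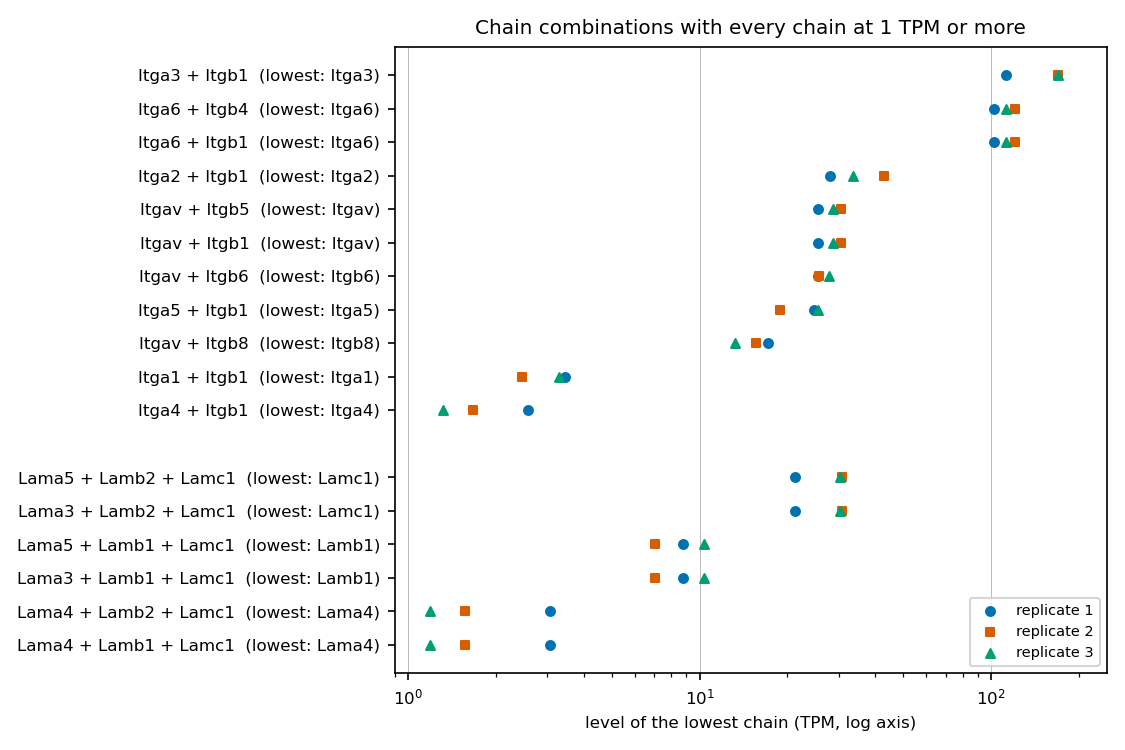
Each row is a chain combination with all chains at 1 TPM or more, and points give the level of its lowest chain in each of 3 libraries (TPM, log axis), with the chain that is lowest by mean named. The 11 integrin pairs lie in the upper block and the 6 laminin trimers in the lower, led by Itga3 with Itgb1 and by Lama5 or Lama3 with Lamb2 and Lamc1.

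Beta chains were more abundant than alpha chains in sum. The 8 beta chains summed to 671, 797 and 772 TPM and the 13 alpha chains to 308, 390 and 377 TPM. The groups do not overlap. The alpha chains that can pair with Itgb1, without Itgav, summed to 279, 358 and 347 TPM, above the 227, 238 and 244 TPM of Itgb1. Without Itga6 they summed to 177, 237 and 234 TPM, below Itgb1 in each library but nearly equal to it in replicate 2. Itgav, by contrast, was the scarce partner of its own beta chains: Itgb3, Itgb5, Itgb6 and Itgb8 summed to 135, 146 and 154 TPM, against 25.5, 30.5 and 28.8 TPM of Itgav.

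Partner chains were then compared within each library as differences in log2(TPM + 1), with a two-sided exact sign-flip test in 9 pairs. With 3 libraries this test cannot give a p below 0.25, or 0.321 after Benjamini-Hochberg adjustment over the 9 pairs, so no difference could pass. Itgb4 exceeded Itga6 by 1.70 ± 0.09, or 3.24-fold, in 3 of 3 libraries (exact sign-flip p = 0.25). Itgb1 differed from Itgb4 by -0.62 ± 0.17, lower in 3 of 3 libraries. Itgb6 exceeded Itgb8 by 0.83 ± 0.17 in 3 of 3 libraries. These differences were larger than their spread.

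The length used for a gene moved some of these differences by more than the spread between libraries. The deposited length of Itga6 is 9025 bases and its longest annotated transcript has 4310 bases. With transcript lengths, the excess of Itgb4 over Itga6 fell from 1.70 to 0.81. Itga3 lay above Itga6 by 0.41 ± 0.24 with the deposited lengths and differed from it by -0.42 ± 0.24 with transcript lengths, so the order of these 2 chains depends on that choice. Itga2 and Itga1 have longest transcripts above their deposited lengths, and their pairs with Itgb1 fell to 17.4 and 1.41 TPM, which puts Itga2 below Itgav (36.2 TPM) and Itga5 (19.5 TPM). For the same reason the pairs of Itga6 reached 196 TPM by transcript length, above the 149 TPM of Itga3 with Itgb1. Isoforms, including those of the Itga6 tail, are not separated in counts per gene.

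**Figure D3:**
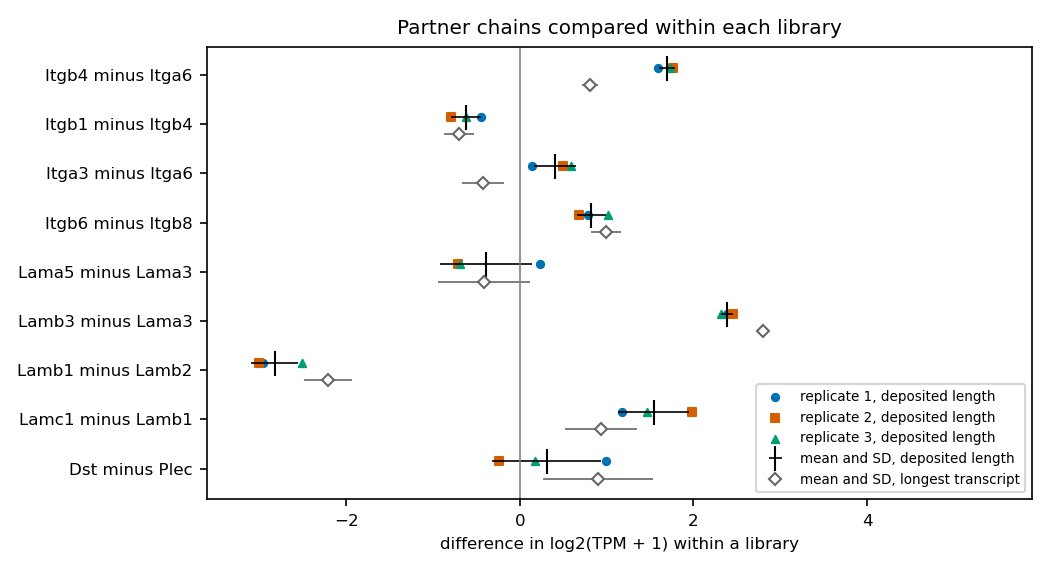
Differences in log2(TPM + 1) between partner chains within a library, with filled points for 3 libraries and bars for mean and SD (deposited gene length), and open diamonds for the mean and SD by longest annotated transcript. Itga3 minus Itga6 changes sign between the 2 lengths, from 0.41 to -0.42, and the points of Dst minus Plec and Lama5 minus Lama3 lie on both sides of 0.

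Among the alpha and beta laminin chains of the set, those of the hemidesmosome laminin had the highest mean of their class. Lamb3, the beta chain (chromosome 1, 193207699 to 193343878, plus strand), had 424, 536 and 505 TPM. Lama3, the alpha chain (chromosome 18, 12333819 to 12583013, plus strand), had 80.3, 97.0 and 100.2 TPM. Both were lowest in replicate 1. Lamb3 exceeded Lama3 by 2.39 ± 0.07 on the log2 scale, or 5.23-fold, in 3 of 3 libraries (exact sign-flip p = 0.25). With transcript lengths the difference was 2.80 ± 0.07, so its size depends on the length used.

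Lama5, the alpha chain of the general epithelial laminins (chromosome 2, 180176373 to 180225859, minus strand), had 94.3, 59.0 and 62.0 TPM. It lay above Lama3 in replicate 1 and below it in the others, and the mean difference of -0.39 ± 0.53 was smaller than its spread (exact sign-flip p = 0.5). Lamb2 had 75.0, 63.3 and 63.7 TPM and Lamb1 8.78, 7.04 and 10.4 TPM. Lamb1, the classical beta chain, differed from Lamb2 by -2.82 ± 0.27, lower in 3 of 3 libraries. Lamc1, the gamma chain of most laminins, had 21.2, 30.9 and 30.4 TPM and exceeded Lamb1 by 1.55 ± 0.41. With transcript lengths these last differences were smaller, -2.21 ± 0.28 for Lamb1 against Lamb2 and 0.94 ± 0.41 for Lamc1 against Lamb1, in the same direction. Lama4, known from vessels, had 3.06, 1.56 and 1.19 TPM, while the endothelial markers Cdh5, Cldn5 and Emcn had no counts and Pecam1 had 14, 17 and 31. Lama1 had 0.283, 0.407 and 0.436 TPM and Lama2 0.0511, 0.183 and 0.0198 TPM, and Lamc3 had no counts, which allows up to 0.0457 TPM.

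Of 13 laminin trimers considered, all chains were detected for 6. Trimers that hold Lamb3 were not analysed here. The lowest chain was highest for Lama5 or Lama3 with Lamb2 and Lamc1, at 27.5 ± 5.46 TPM, limited by Lamc1. With Lamb1 in place of Lamb2, both stood at 8.73 ± 1.66 TPM, limited by Lamb1. Lama4 with Lamb1 or Lamb2 and Lamc1 reached 1.94 ± 0.99 TPM, or 3.24 TPM by transcript length. The trimers not counted all hold Lama1, Lama2 or Lamc3. At a limit of 5 TPM the trimers of Lama4 dropped out and 4 remained.

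The authors' deposited table also holds a log2 fold change and adjusted p per gene. Which groups it compares is not stated; names of columns not used here point to bulge libraries, the bulge being the stem cell niche of the follicle. Its direction was read from genes with no counts in the 3 libraries, of which 2555 of 2555 had a negative value, so positive means higher in the libraries studied here. An adjusted p was given for 34 of the 35 genes in the authors' deposited table. At an adjusted p under 0.05, 10 were higher and 10 lower there, and 14 did not pass. That is 58.8% called, against 55.5% of all 20274 genes with a value (23.6% higher and 32% lower), so the share is near the background. The median fold change in that table was -0.37 over these genes and -0.36 over all genes, and all 20 calls kept their side when read against the latter.

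The largest increases among those that passed were of laminin beta chains. Lamb3 had a log2 fold change of 2.09 (adjusted p = 4.39e-15) and Lamb2 of 1.73 (adjusted p = 2.05e-18) in the authors' deposited table. Itgb5 had 1.59, Lama5 1.23, Lamb1 1.07, Cd151 0.98, Col17a1 0.87 and Itga3 0.81 in the same deposited table, all with adjusted p-values under 0.01. Itgb4 (0.57, adjusted p = 0.0494) and Itgb1 (0.53, adjusted p = 0.0246) were the weakest calls of the authors' deposited table on this side.

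The lower genes included Itgav and its TGF-beta-activating partners. The authors' deposited table gave -1.58 for Itgav (adjusted p = 1.12e-11), -1.42 for Itgb6 (adjusted p = 4.33e-13) and -1.12 for Itgb8 (adjusted p = 1.87e-08). The neighbouring collagen receptor genes Itga2 and Itga1 had -1.58 and -1.53 in the authors' deposited table, Itga4 -1.53 and Dst -1.46 (adjusted p = 2.73e-11). Lama4 had -1.19 and Lama3 -0.71 (adjusted p = 0.00456), and Itgb7, with at most 19 counts, had -2.65 (adjusted p = 0.00856) in the same deposited table. Chains of one complex were thus on opposite sides: Lamb3 was higher while Lama3 was lower, and Itgb5 was higher while Itgav was lower, by the authors' deposited table. Itga6, Itga5, Plec and Lamc1 did not pass, with log2 fold changes of -0.35, -0.28, -0.46 and -0.53 there. Of the other 10 that did not pass, Itga2b alone was detected, at 0.84. Itga7 (2.53, adjusted p = 0.0661) and Itga9 (-2.78, adjusted p = 0.0806) had the widest of their values in the authors' deposited table, at few or no counts. There, all 4 markers of differentiated layers were higher, with a median of 3.23. Of the 6 hair follicle stem cell markers, 2 were higher and 3 lower (over all genes, 23.6% and 32%). The part of cell composition in these fold changes was not tested.

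**Figure D4:**
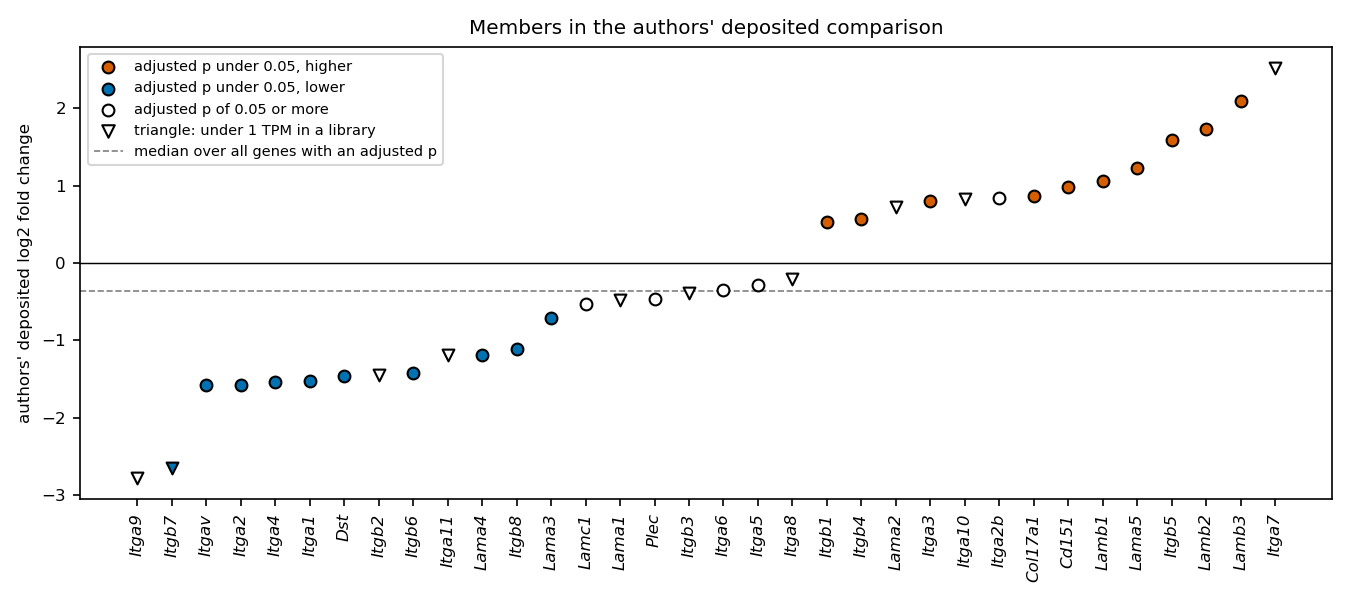
Log2 fold change per gene from the authors' deposited table for the 34 genes with an adjusted p, in order of value; filled symbols have an adjusted p under 0.05, triangles are genes under 1 TPM in at least 1 library, and the dashed line is the median over all genes. The calls fall on both sides, 10 higher and 10 lower, with Lamb3 and Lamb2 the highest of the filled symbols.

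H3K27me3 is a histone mark of Polycomb repression, and the deposited table carries a value under that name for each gene, without unit or source cells. It was above 0 for 6 of the 35 genes (17.1%), against 8.06% of all genes and 11.2% of protein-coding genes. The values were 16093 for Lamc3, 10291 for Itga9, 9674 for Itgb3, 5468 for Lamb1, 4685 for Itga11 and 1689 for Itga8. Of these 6, Lamb1 was detected and the others were under 1 TPM in every library. Among all genes with a value above 0, 9.73% were detected. Lamb1 was also higher in the authors' deposited comparison. Its deposited score, built from the mark and the fold change, placed it at 159 of 20274 genes.

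Promoter sequence was available in RefSeq (GRCm38.p6) for 24 of the 35 genes, in 29 windows of 250 bases before a RefSeq start site. For several genes that site lies inside the GENCODE gene model, downstream of its first base. It lies far inside the model for Dst, Lamb3 and Itga9, among others. CpG dinucleotides, which are dense at many promoters with this mark, numbered 10 to 18 in the 4 windows of members with an H3K27me3 value (Itga8, Itga9, Itga11 and Lamb1). Of 25 windows of members at 0, 12 held 10 or more, so a CpG-rich window was common without a value too. Over all genes, 54.4% of windows with a value and 47.4% of windows at 0 held 10 or more. The stretches below are shown as examples: the 2 most abundant genes, both with few CpG, an abundant gene with many, and 3 genes with an H3K27me3 value. CpG is in capitals, each is written 5′ to 3′ on the gene's strand, and bases inside annotated exons are left out.
Col17a1 (chr19:47692095-47692292, minus strand, 2 CpG): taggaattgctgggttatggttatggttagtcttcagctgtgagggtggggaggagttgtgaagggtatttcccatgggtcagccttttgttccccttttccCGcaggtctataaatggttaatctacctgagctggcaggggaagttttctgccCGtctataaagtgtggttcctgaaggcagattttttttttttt
Lamb3 (chr1:193301744-193301992, plus strand, 2 CpG): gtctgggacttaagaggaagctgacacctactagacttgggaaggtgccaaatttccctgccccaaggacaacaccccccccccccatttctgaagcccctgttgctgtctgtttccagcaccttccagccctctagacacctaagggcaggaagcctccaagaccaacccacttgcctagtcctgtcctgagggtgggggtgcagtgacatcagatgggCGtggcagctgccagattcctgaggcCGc
Lama5 (chr2:180225860-180226109, minus strand, 19 CpG): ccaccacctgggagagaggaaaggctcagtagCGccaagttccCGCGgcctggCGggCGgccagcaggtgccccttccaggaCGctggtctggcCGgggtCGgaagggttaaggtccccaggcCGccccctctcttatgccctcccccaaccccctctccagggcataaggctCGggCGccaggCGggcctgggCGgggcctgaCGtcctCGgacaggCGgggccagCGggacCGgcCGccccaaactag
Itga9 (chr9:118711442-118711656, plus strand, 9 CpG): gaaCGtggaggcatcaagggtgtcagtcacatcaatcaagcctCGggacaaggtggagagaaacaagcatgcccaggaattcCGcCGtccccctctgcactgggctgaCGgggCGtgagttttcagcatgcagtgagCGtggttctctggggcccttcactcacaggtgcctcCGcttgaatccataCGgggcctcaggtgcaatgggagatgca
Itga11 (chr9:62677605-62677825, plus strand, 11 CpG): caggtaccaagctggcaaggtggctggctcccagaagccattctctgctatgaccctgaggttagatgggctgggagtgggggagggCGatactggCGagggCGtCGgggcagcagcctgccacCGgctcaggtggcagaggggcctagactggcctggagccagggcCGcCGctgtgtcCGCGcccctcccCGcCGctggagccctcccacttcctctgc
Lamb1 (chr12:31265043-31265233, plus strand, 10 CpG): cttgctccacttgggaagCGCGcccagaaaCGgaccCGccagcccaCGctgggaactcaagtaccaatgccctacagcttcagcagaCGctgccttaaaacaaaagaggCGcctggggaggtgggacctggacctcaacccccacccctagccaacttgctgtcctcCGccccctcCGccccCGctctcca

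Col17a1 and Lamb3, the highest genes of the set, had 2 CpG each in these stretches, while Lama5 had 19, so high levels occurred with both kinds of promoter. The TATA box letters TATAAA, searched on both strands, were found in the window of Col17a1 (2 matches) and in no other window of the set, against 12.4% of all windows. The GC box GGGCGG was found in 10 of 29 windows, against 32.7% of all windows. The AP-1 motif TGANTCA was found in 0 of 29, against 6.75% of all windows. A match is a run of letters in this window and no evidence of binding.

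Genes that work with these chains were read from lists of activators, ligands and receptors. Each count of calls below stands beside the 23.6% higher and 32% lower over all genes, and with lists this short no difference from those shares was tested. Of 23 integrin activators and adaptors, 20 were detected. Actn1, an actin crosslinker at adhesion sites, had 364 ± 87.0 TPM, Kank1 195 ± 43.9 TPM, Flna 153 ± 16.9 TPM and Zyx 133 ± 34.4 TPM. Of 21 with an adjusted p in the authors' deposited table, 8 were higher and 4 lower, with the largest changes in Src (2.21) and Sharpin (2.10), an inhibitor of integrin activation. Of 8 tetraspanins, 5 were detected, led by Cd9 with 1240.1 ± 182 TPM and Cd63 with 505 ± 4.80 TPM, beside Cd81 with 119 ± 10.1 TPM and Cd82 with 109 ± 26.8 TPM. By transcript length Cd63 had 151 TPM and Cd81 179 TPM, so the order of these 2 depends on the length used. Of 7 in the authors' deposited table, 3 were higher and none lower, and Cd82 had a log2 fold change of 3.19 and Cd63 of 2.05.

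Of 16 basement membrane partners, 12 were detected. Agrn, the heparan sulfate proteoglycan agrin, had 355 ± 69.2 TPM, Npnt, the nephronectin ligand of Itga8 with Itgb1, 175 ± 41.5 TPM, Col7a1, the anchoring fibril collagen, 166 ± 62.3 TPM and Egfl6 152 ± 23.4 TPM. Thus Npnt was abundant while its receptor chain Itga8 was at 0.148 ± 0.0165 TPM in these cells. Nid1 and Nid2, the nidogens that link laminin to collagen IV, had 0.188 ± 0.0790 and 0.0530 ± 0.0230 TPM, and were named after their values were seen. The authors' deposited table had 5 of 16 higher and 2 lower, with 2.03 for Col7a1 and 1.66 for Col4a1.

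Matrix ligands of the RGD and related receptors were detected for 9 of 13 genes. Postn, which encodes periostin, had 1487 ± 504 TPM, Thbs1 299 ± 83.1 TPM, Ltbp3 258 ± 31.1 TPM and Tnc 96.2 ± 34.0 TPM. Vtn, the vitronectin ligand of Itgav with Itgb5, had no counts. Of 12 in the authors' deposited table, 4 were higher and 1 lower, with 1.38 for Fn1 and -3.20 for Spp1. Spp1 had only 0, 11 and 0 counts. All 6 laminin receptors other than integrins were detected: Rpsa had 2153 ± 272 TPM, Bcam 1363 ± 316 TPM, Sdc1 922 ± 231 TPM and Sdc4 702 ± 107 TPM. Rpsa has close pseudogene copies, so its level is uncertain. Of these 6, 3 were higher and none lower in the authors' deposited table, with 2.41 for Bcam, an Ig-family receptor of Lama5, and 2.37 for Sdc1. Krt5, Krt14 and Krt15, keratins of basal cells, had 17900 ± 3750, 6136 ± 899 and 23208 ± 3176 TPM and were all higher in that deposited table.

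The libraries differed in which genes they held most of. Of the 25 genes with a mean of at least 1 TPM, replicate 1 held the highest value of 10, replicate 2 of 10 and replicate 3 of 5. Over all 13664 genes at that level the shares were 59.6%, 20% and 20.4%. Other scalings shift replicate 1 down by 0.17 to 0.20 (log2) at the median gene, and the number highest in replicate 1 was then 6. The 10 genes highest there in TPM were Dst, Lama5, Lama4, Lamb2, Itga1, Itga4, Itga2b, Itga10, Itgb6 and Itgb8, and Itga3, Itga2, Itgb4, Lamb3, Lama3, Lamc1 and Col17a1 were among those lowest there. Replicate 1 was also lowest in the summed markers of differentiated layers given above, though highest in Ivl. Their part in these differences was not tested.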

How the data were processed

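Read counts per gene for 3 libraries of 1 group were taken as the authors deposited them, as whole numbers per the file headers. The deposited TPM values were made by the authors from counts and a gene length, and were recomputed to within 4.72e-06. The log2 fold change, its adjusted p-value and a score were deposited by the authors, per the file headers, with no test stated. The submitters' processing notes name TopHat2, SAMtools, FastQC, DESeq and DESeq2 and the builds mm10 and GRCm38, with no role for each. Another 6 columns matched no sample and were not used. One gene outside the set, and what rests on it, is not reported here. Coordinates, exon overlaps and transcript lengths came from GENCODE M21 (GRCm38), matched by identifier for 35 of 35 genes, and promoters from RefSeq (GRCm38.p6). Where a symbol had several entries, the most abundant one was used.

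A gene was detected at 1 TPM in every library. Differences between chains used log2(TPM + 1), which understates changes of low genes, with a two-sided exact sign-flip test and Benjamini-Hochberg adjustment over 9 pairs. The upper limit of a count of 0 was 3 counts and covers counting error only. No contrast between groups could be fitted with 1 group. Functions were tested on simulated data (Python 3.11.15, numpy 2.4.6, pandas 2.3.3). The genes and lists were chosen with earlier results of these data known. All members were named, and of each other list the 4 genes with the highest mean TPM and the 2 with the largest deposited fold change at an adjusted p under 0.05. Genes named beyond that rule because of their values, or as the partner of a member, are Nid1, Nid2, Vtn, Ilk, Parva, Parvb, Lims1 and Lims2. Alternatives covered TPM limits of 0.5 and 5, a minimum of 10 counts, transcript length, a pseudocount of 0.1, 2 other scalings and leaving out each library.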

Additional observations from a re-analysis of the deposited data

How the results depend on the processing

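Of the recomputed values, 102 kept their direction and size class, 10 moved and 2 changed sign. With the longest annotated transcript as gene length, Itga3 minus Itga6 turned from 0.41 to -0.42 and the median log2(TPM + 1) of the 35 genes went from 4.51 to 4.22; over the genes with a mean of at least 1 TPM it was 6.04. A limit of 5 TPM gave 20 detected genes, 9 integrin pairs and 4 laminin trimers. A minimum of 10 counts in every library gave 28, 14 and 8. Leaving out 1 library gave 24 to 25 detected genes, 11 to 12 integrin pairs, 6 laminin trimers in each case, and 4.39 to 4.60 for the median of the 35 genes. It gave -0.029 to 0.59 for Dst minus Plec, where replicate 1 decides the sign. With a minimum log2 fold change of 1, the deposited calls were 5 higher and 9 lower, instead of 10 and 10. The number of genes highest in replicate 1 was 6 with median-ratio and 6 with upper-quartile scaling, and that in replicate 3 was 9 under both, 8 over all members with a count, and 11 to 14 with a library left out, which by construction leaves fewer libraries to be highest in. No paired analysis was possible because the samples form 1 group. Leaving out a library could not be applied to the deposited fold changes or the H3K27me3 values. At these depths, genes with fewer than 10 counts in a library cannot be ordered.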

Other observations

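Some values touch the adhesion machinery without belonging to a comparison above. Ilk, the integrin-linked kinase that joins the beta1 tail to parvin and PINCH proteins, had 3, 0 and 10 counts, while its partners Parva and Lims1 had 15.9 ± 1.25 and 17.6 ± 2.19 TPM. Exons of Ilk overlap those of Taf10 on the opposite strand by a summed 2156 bases, and Taf10 had 1168, 1884 and 1755 counts. How reads in shared bases were counted was not stated, so the low count of Ilk cannot be read as low expression. Ilk was chosen after its values were seen.

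Of the parvins and PINCH proteins, Parvb had 1, 1 and 3 counts and an H3K27me3 value of 4672, and Lims2 had 1, 11 and 9 counts and a value of 14811.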
